A study of Mus musculus with 3 samples.

Results

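The 6 genes described here, Camp, Ngp, Ltf, Lcn2, Mmp8 and Mmp9, encode proteins that neutrophils store in their secondary (specific) and tertiary (gelatinase) granules. They were taken by name from the 32285 genes of the deposited matrices, not by a cutoff on a measured value. Earlier results of these data were known when they were chosen. All 6 were present with 1 identifier each (Camp ENSMUSG00000038357, Ngp ENSMUSG00000032484, Ltf ENSMUSG00000032496, Lcn2 ENSMUSG00000026822, Mmp8 ENSMUSG00000005800, Mmp9 ENSMUSG00000017737). Their transcripts were followed across cell types in 3 droplet libraries, labelled PBS, PD-L1 and AI-Exo, from mice with non-small cell lung cancer. The question of the study was what drug treatment does to the tumour's immune cells. Dose, timing, mouse strain, tumour model and the composition of the PD-L1 and AI-Exo treatments are not given in the labels, and no cell sort is named. With a single library for each group, differences between libraries have no replicate check and no test was possible. The 95% intervals in brackets cover counting error only.

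Neutrophils make their granule proteins in waves during maturation in the bone marrow. Primary granule proteins such as myeloperoxidase and elastase come first in promyelocytes, secondary granule proteins follow in myelocytes and metamyelocytes, and gelatinase granules fill last, in band cells. Once a neutrophil is mature it largely stops transcribing the secondary granule genes and carries the finished proteins, so these transcripts mark young cells. The transcription factors C/EBP epsilon and PU.1 are known activators of the programme. Camp encodes the precursor of the antimicrobial peptide CRAMP, and Ngp encodes a related cathelin-like granule protein. Ltf encodes lactoferrin, which binds iron, and Lcn2 encodes lipocalin 2, which captures bacterial siderophores. Mmp8 encodes neutrophil collagenase and Mmp9 encodes gelatinase B, and both enzymes cut matrix proteins.

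The promoters of the members are shown because the genes encode neutrophil granule proteins and most hold the letters bound by the C/EBP family. The sequences are from RefSeq, build GRCm38.p6, run 5′ to 3′ on the strand of the gene, and cover 250 bases before to 50 bases after the transcription start. They lie at chr9:109849407-109849706 on the minus strand for Camp, chr9:110419558-110419857 on the plus strand for Ngp, chr9:111019042-111019341 on the plus strand for Ltf, chr2:32387690-32387989 on the minus strand for Lcn2 and chr9:7558179-7558478 on the plus strand for Mmp8. Capitals mark matches to the C/EBP motif TTGCNNAA on either strand.
Camp: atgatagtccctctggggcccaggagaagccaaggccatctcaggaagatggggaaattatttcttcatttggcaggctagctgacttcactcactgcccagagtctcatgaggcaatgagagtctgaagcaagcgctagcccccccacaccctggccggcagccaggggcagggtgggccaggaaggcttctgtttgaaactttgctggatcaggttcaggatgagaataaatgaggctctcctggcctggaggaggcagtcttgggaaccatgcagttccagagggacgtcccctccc
Ngp: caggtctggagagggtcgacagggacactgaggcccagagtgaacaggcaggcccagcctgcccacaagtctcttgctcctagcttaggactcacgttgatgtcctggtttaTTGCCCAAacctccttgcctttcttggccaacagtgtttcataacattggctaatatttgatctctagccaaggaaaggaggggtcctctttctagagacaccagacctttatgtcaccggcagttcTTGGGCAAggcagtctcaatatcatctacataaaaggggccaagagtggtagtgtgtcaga
Ltf: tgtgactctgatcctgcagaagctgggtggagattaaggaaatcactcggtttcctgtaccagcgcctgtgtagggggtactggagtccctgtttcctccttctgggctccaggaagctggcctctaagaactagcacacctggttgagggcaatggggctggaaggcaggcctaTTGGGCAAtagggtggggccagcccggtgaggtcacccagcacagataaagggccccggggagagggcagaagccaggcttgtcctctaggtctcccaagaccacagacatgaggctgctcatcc
Lcn2: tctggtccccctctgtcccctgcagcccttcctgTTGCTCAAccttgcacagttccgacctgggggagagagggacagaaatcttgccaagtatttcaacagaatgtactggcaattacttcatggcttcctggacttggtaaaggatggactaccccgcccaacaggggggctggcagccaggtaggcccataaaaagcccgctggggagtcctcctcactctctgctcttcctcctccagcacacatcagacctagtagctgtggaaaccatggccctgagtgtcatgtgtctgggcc
Mmp8: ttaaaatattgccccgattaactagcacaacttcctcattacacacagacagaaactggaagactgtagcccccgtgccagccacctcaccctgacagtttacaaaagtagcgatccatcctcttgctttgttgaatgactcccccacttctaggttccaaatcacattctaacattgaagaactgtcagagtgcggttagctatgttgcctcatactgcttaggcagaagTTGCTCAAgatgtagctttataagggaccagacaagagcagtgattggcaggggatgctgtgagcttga
Mmp9 had no entry. The C/EBP motif occurred in 4 of these 5 promoters and in 10.8% of the 32817 promoters of the table. Ngp held it at 2 places, first bases 138 and 11 before the start, Ltf held it 75 before, Lcn2 216 before and Mmp8 19 before. All motifs were searched on both strands. The PU.1 motif GAGGAA was in 3 of the 5 (Ltf, Lcn2 and Mmp8) and in 28.3% of all promoters. The NF-kB motif was in 1 of the 5, Camp, and in 20.7% of all, and the AP-1 motif TGANTCA was in 0 of the 5 and in 7.81% of all. The 4 motifs did not overlap each other in these promoters, and a match describes letters in a window, not a bound site.

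Cells were barcodes with at least 500 UMIs (unique molecular identifiers, the tags by which captured transcripts are counted), at least 200 genes and at most 20% mitochondrial UMIs. PBS had 9359, PD-L1 9697 and AI-Exo 10457, with medians of 4380, 3948 and 4425 UMIs, and the matrices held 68386729, 65997942 and 76512500 UMIs. Pairs of libraries shared 23 to 33 of the kept barcodes. Cell types were set by the number of their markers detected in a barcode, and none of the 6 genes was a marker. Neutrophils (at least 6 of 10 markers, among them S100a8, Csf3r and Cxcr2) numbered 1252, 1772 and 1338. Those with at least 3 of 15 markers of immature cells, such as Cebpe, Fcnb and Elane, are called immature here. Those with at most 1 of them and at least 3 of 8 markers of mature cells are called mature, and the rest intermediate. All 10 neutrophil markers stood at 20 CPM (the UMIs of a gene summed over a class per 1000000 UMIs of that class) or more in the neutrophils of each library. Of the 15 immature markers, 9, 8 and 13 did so in immature cells of PBS, PD-L1 and AI-Exo, and 2, 1 and 1 in mature cells. Monocytes numbered 1123, 521 and 325 and showed all 10 of their own markers at that level.

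PBS held 21 immature neutrophils, PD-L1 32 and AI-Exo 95. As a share of neutrophils that was 1.68% [1.04 to 2.55], 1.81% [1.24 to 2.54] and 7.1% [5.78 to 8.61]. The AI-Exo interval lay above the other 2, and those overlapped. Of all neutrophil UMIs, 4.90%, 4.34% and 21.6% came from immature cells, whose median depth was 8408, 7642 and 9943 UMIs against 2489, 2732 and 2868 in mature cells. A further 38, 31 and 131 barcodes passed the neutrophil gate with at least 3 immature markers but also another gate, most often that of monocytes (27, 19 and 81). Their median depths were 15489.5, 27196 and 24174 UMIs, and they were left out of every class because 1 barcode may hold more than 1 cell. Barcodes passing several gates held 17.8%, 38.7% and 26.5% of the Camp UMIs of the libraries, and neutrophils 68.9%, 55.2% and 70.0%.

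Camp, Ngp and Ltf were concentrated in the immature neutrophils of every library. Camp reached 37724 CPM in the immature cells of PBS, 18862 in those of PD-L1 and 30056 in those of AI-Exo. In mature cells it was at 6.34, 37.8 and 93.8 CPM, and the intermediate cells lay between at 338, 1261 and 2324 CPM. The log2 ratio of immature to mature cells, taken on CPM plus 10, was 11.17 [10.93 to 11.41] for PBS, 8.62 [8.46 to 8.79] for PD-L1 and 8.18 [8.05 to 8.31] for AI-Exo. PBS had the highest Camp level in immature cells and the lowest in mature cells.

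Ngp followed the same order of stages. It stood at 20256, 12064 and 18070 CPM in immature cells, at 616, 1208 and 1531 in intermediate cells and at 38.3, 70.7 and 124 in mature cells of PBS, PD-L1 and AI-Exo. Its log2 ratio of immature to mature cells was 8.71, 7.23 and 7.08. The mature value of PBS rests on 21 Camp UMIs, and clusters built without the 6 genes, described further below, gave another order of the mature cells of PBS and PD-L1, so no order of the libraries is read from these ratios.

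Ltf, the lactoferrin gene, was at 4082, 2801 and 3581 CPM in immature cells and at 22.3, 26.3 and 32.9 CPM in mature cells, a log2 ratio of 6.98, 6.27 and 6.39. Lcn2 was also highest in immature cells, at 9111, 10027 and 10689 CPM, but mature cells kept 766, 565 and 537 CPM, so that its ratio was 3.55, 4.13 and 4.29. For Ltf and Lcn2, too, no order of the libraries is read from these ratios.

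The collagenase gene Mmp8 differed less between stages, with 455, 551 and 352 CPM in immature cells and 118, 64.5 and 86.4 CPM in mature cells (log2 ratios of 1.86, 2.91 and 1.91). Mmp9, the gelatinase gene, was nearly level over the stages. It was at 487, 551 and 428 CPM in immature cells, 415, 378 and 346 in intermediate cells and 434, 338 and 410 in mature cells of PBS, PD-L1 and AI-Exo. The log2 ratio of immature to mature cells was 0.16 [-0.14 to 0.46] in PBS and 0.06 [-0.08 to 0.20] in AI-Exo, both intervals including 0, and 0.69 [0.44 to 0.93] in PD-L1. The 6 genes thus ranged from a difference of several orders of magnitude for Camp to a far smaller one for Mmp9, within counting error in PBS and AI-Exo. The AI-Exo value includes 2 immature barcodes over 50000 UMIs, which held 0 Mmp9 UMIs. Without them, its immature cells stood at 494 CPM, and no interval was computed. Immature cells also differed among themselves in Mmp9, as given further below.

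**Figure D1:**
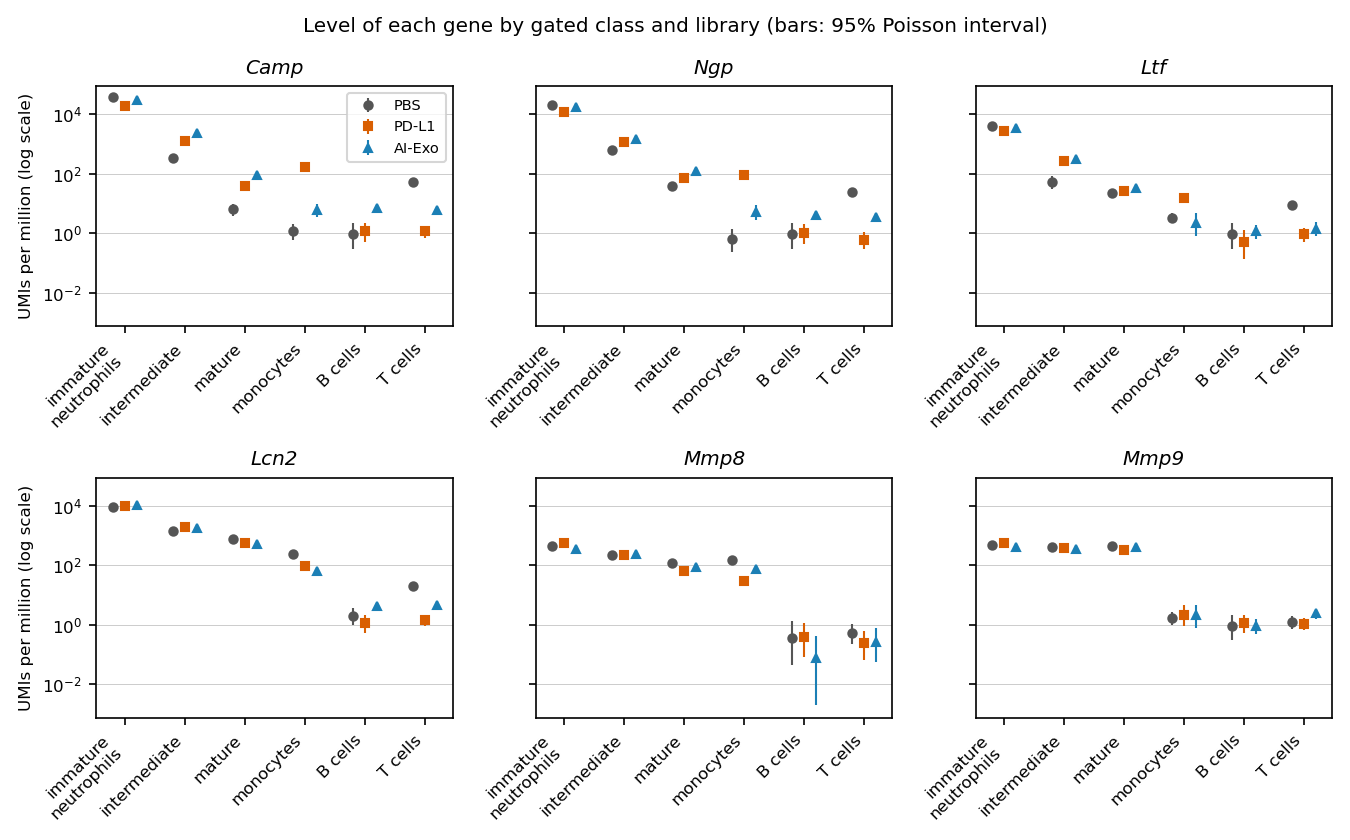
CPM (log scale) of each gene in immature, intermediate and mature neutrophils, monocytes, B cells and T cells of the 3 libraries, with exact 95% Poisson intervals. Camp falls from 37724 to 6.34 CPM between immature and mature cells in PBS, whereas Mmp9 stays between 338 and 551 CPM over the 3 stages in every library.

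The same contrast appeared in the share of cells with a UMI after every barcode was thinned to 1000 UMIs. Camp was found in 85.7%, 75% and 89.5% of immature cells and in 0.540%, 0.796% and 1.59% of mature cells of PBS, PD-L1 and AI-Exo. B cells, which should lack the gene, gave 0%, 0.167% and 0.666% at median depths of 3240, 3622 and 3828 UMIs before thinning. Lcn2 was found in 90.5%, 93.8% and 93.7% of immature cells and still in 34.8%, 29.7% and 24.9% of mature cells, against 0.236%, 0.0558% and 0.351% of B cells. Mmp9 was found in 33.3%, 37.5% and 34.7% of immature and in 30.7%, 25.6% and 28.7% of mature cells, with overlapping intervals of the 2 stages in each library. At least 3 of the 6 genes were seen together in 85.7%, 78.1% and 90.5% of immature cells and in 4.14%, 1.65% and 2.56% of mature cells. Free RNA, read from barcodes with at most 100 UMIs, could make up at most 0.941% to 3.80% of the UMIs in the neutrophil stages and monocytes.

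Immature cells themselves varied widely. Across the 21 immature cells of PBS, Camp ran from 0 through a median of 29261 to 82625 CPM, and 3 cells were at 0. The 32 cells of PD-L1 ran from 0 through 14034 to 52487 CPM with 7 at 0. The 95 cells of AI-Exo ran from 0 through 29262 to 87553 CPM with 6 at 0. The median cell of AI-Exo matched that of PBS, and that of PD-L1 was lower. Mmp8 was absent from 8, 8 and 43 of these cells, and Mmp9 from 1, 1 and 19. Mmp9 was thus missing from a larger share of the immature cells in AI-Exo than in the other 2 libraries, although those cells were the deepest. The thinned shares of immature cells with Mmp9, given above, did not show this difference. AI-Exo also held 22 cells with 8 or more immature markers, where Mmp9 was low, against 2 in PBS.

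The number of immature markers detected in a neutrophil sorted the 6 genes further. In AI-Exo, 42 immature cells had 3 to 4 markers, 31 had 5 to 7 and 22 had 8 or more, with median depths of 8259, 9943 and 19410.5 UMIs. Camp went over these bins from 12188 to 33939 and 44068 CPM, and Ngp from 8614 to 18257 and 27211. Mmp8 went the other way, from 639 to 409 and 16.2 CPM, and Mmp9 went from 658 to 554 and 83.4 CPM. Lcn2 was at 7096, 11703 and 13292 CPM and Ltf at 1860, 4584 and 4351. Each of the first 2 bins held 1 far deeper barcode, of 85200 and 83307 UMIs, and of the 6 genes these showed 0 and 1 UMI, the latter of Lcn2. Without barcodes over 50000 UMIs, left out after seeing the data, the 3 bins stood at 15241, 42901 and 44068 CPM for Camp and at 10772, 23078 and 27211 for Ngp. Lcn2 was then at 8873, 14790 and 13292 CPM, Ltf at 2326, 5794 and 4351, Mmp8 at 799.7, 517 and 16.2 and Mmp9 at 823, 700.5 and 83.4. Camp, Lcn2 and Ltf thus differed mainly between the first bin and the others, and the low Mmp8 and Mmp9 of the last bin did not depend on these barcodes. In the bin with most markers the elastase gene Elane, of the primary granules, stood at 287 CPM and the division gene Mki67 at 204 CPM, against 2.35 and 30.6 CPM in the lowest bin. Both are among the counted markers, and depth rose with the bins. PBS had 12, 7 and 2 cells in these bins and PD-L1 24 and 8 in the first and second, so bins under 20 cells there are thin. In PD-L1 Mmp8 was at 534 CPM in the first and 584 in the second bin and Mmp9 at 469.8 and 718, neither of them lower with more markers. The 2 PBS cells with most markers held Camp at 78497 CPM, Mmp8 at 89.7 CPM and Mmp9 at 149.5 CPM.

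**Figure D2:**
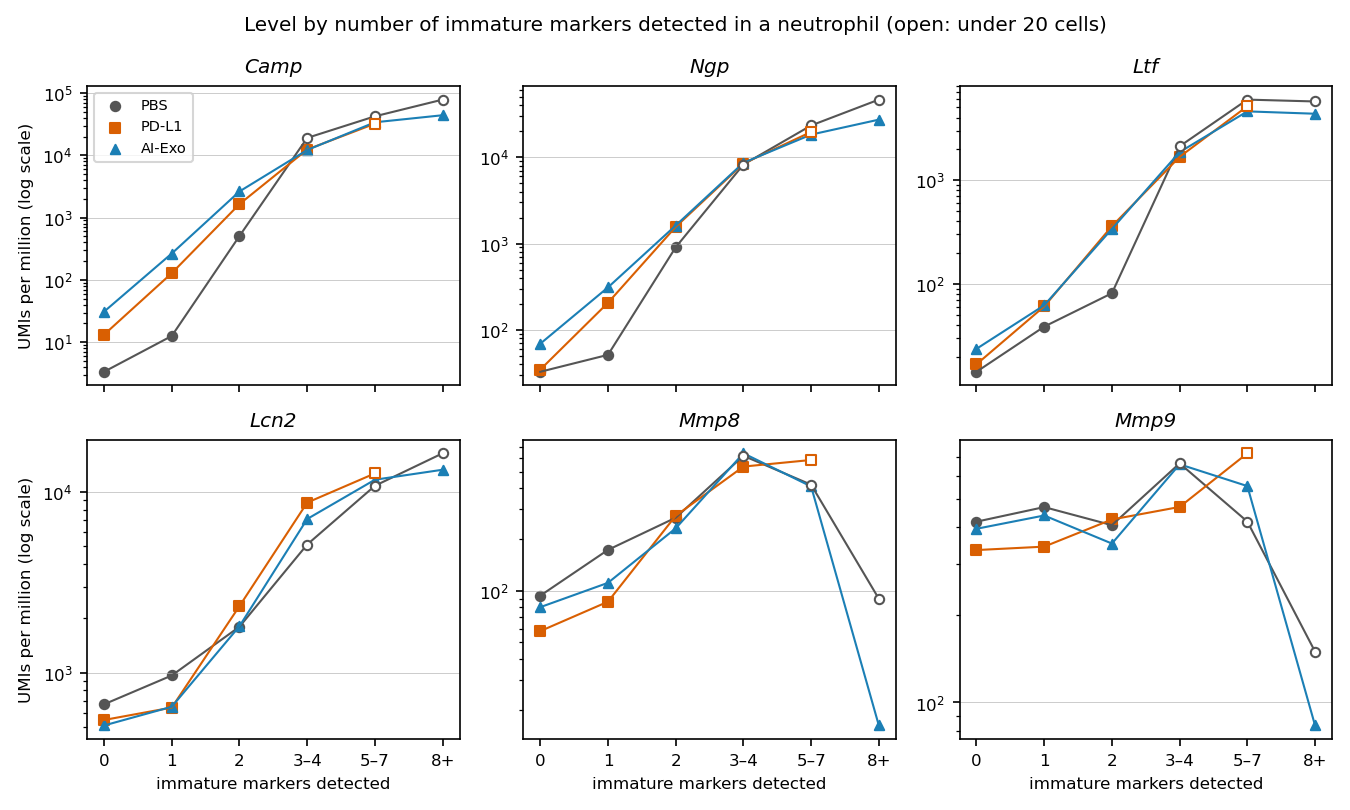
CPM (log scale) of each gene in neutrophils grouped by how many of 15 immature markers were detected, for the 3 libraries, with open symbols for bins under 20 cells. In AI-Exo, the bin with 8 or more markers has Camp at 44068 CPM and Mmp8 and Mmp9 at 16.2 and 83.4 CPM.

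A few cells carried most of the secondary granule transcripts. Immature cells held 98.2%, 88.0% and 95.9% of the Camp UMIs of neutrophils in PBS, PD-L1 and AI-Exo, and 92.2%, 79.1% and 94.6% of the Ngp UMIs. For Ltf the shares were 89.3%, 74.9% and 93.8%. Lcn2 was divided, with 36.4%, 41.0% and 81.3% in immature cells, and Mmp8 had 15.7%, 25.1% and 48.4% there. Only 5.49%, 6.83% and 22.6% of the Mmp9 UMIs came from immature cells, beside 4.90%, 4.34% and 21.6% of all neutrophil UMIs. It took 4, 7 and 19 cells to hold 50% of the Camp UMIs of neutrophils, but 161, 209 and 158 cells to hold 50% of those of Mmp9.

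**Figure D3:**
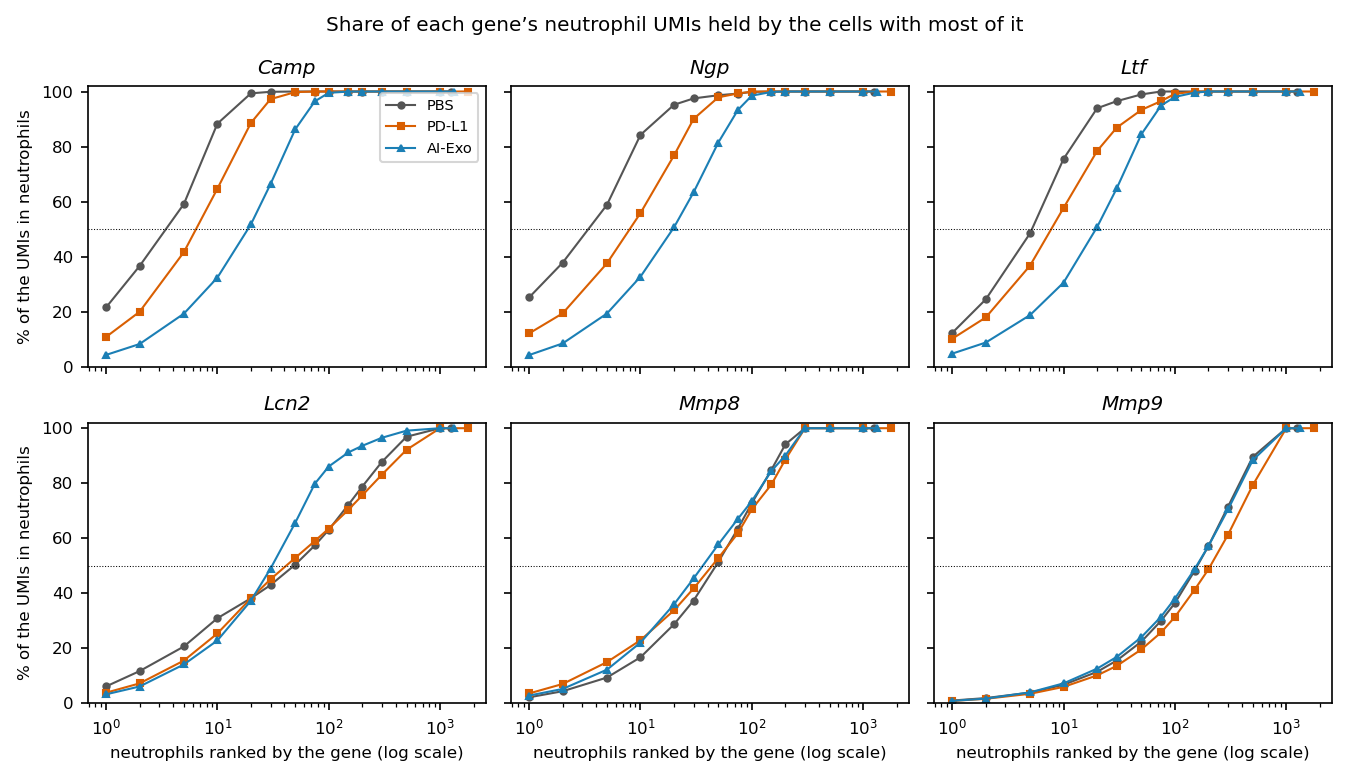
Cumulative percent of each gene's neutrophil UMIs against the number of neutrophils (log scale), ranked from the cell with most UMIs of the gene, for the 3 libraries. Camp reaches 50% with 4 cells of PBS, 7 of PD-L1 and 19 of AI-Exo, and Mmp9 needs 161, 209 and 158.

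Over all neutrophils, 4 of the 6 genes were higher in AI-Exo than in PBS by size. A gene is called higher or lower, by size and not by a test, at a ratio of 1.5 on CPM plus 10, among genes with a mean of at least 10 CPM. Camp was at 1883 CPM in PBS and 6758 in AI-Exo, a log2 ratio of 1.84 [1.80 to 1.87]. Ngp was at 1077 and 4122 CPM (1.93), Ltf at 224 and 824 CPM (1.83) and Lcn2 at 1226 and 2836 CPM (1.20). The metalloproteinases were not called, with Mmp8 at 142 and 157 CPM (0.13) and Mmp9 at 435 and 408 CPM (-0.09). Of all genes tested in neutrophils, 6.93% were called higher and 2.98% lower, and the median log2 ratio was 0.04 over all genes and 1.52 over the 6. The 4 genes called were those most confined to immature cells, whose share also differed between the libraries.

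When the levels of AI-Exo in immature, intermediate and mature cells were weighted by the shares of UMIs those stages had in PBS, the ratios became -0.11 for Camp, 0.06 for Ngp, 0.04 for Ltf, -0.11 for Lcn2, -0.33 for Mmp8 and -0.10 for Mmp9. None of the 6 then reached a ratio of 1.5. Within immature cells themselves, none was called between AI-Exo and PBS, where 22.9% of all genes tested were called higher and 14.2% lower. The log2 ratios there were -0.33 [-0.36 to -0.29] for Camp, -0.16 for Ngp, -0.19 for Ltf, 0.23 for Lcn2, -0.36 [-0.69 to -0.03] for Mmp8 and -0.18 [-0.50 to 0.13] for Mmp9. The pair of deep barcodes named above gave 13.4% of the UMIs of this class. Without them the immature ratios were -0.12 for Camp, 0.04 for Ngp, 0.02 for Ltf and 0.44 for Lcn2, and again none was called.

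Over all neutrophils of PD-L1, Camp and Ngp were lower than in PBS by size. Camp fell from 1883 CPM in PBS to 929.9 in PD-L1, a log2 ratio of -1.01 [-1.06 to -0.96], and Ngp from 1077 to 661 CPM (-0.70). These 2 of the 6 were called lower and 0 higher, where 4.9% of all genes tested were called lower and 3.6% higher. Ltf (224 and 162 CPM), Lcn2 (1226 and 1062), Mmp8 (142 and 95.01) and Mmp9 (435 and 349) had log2 ratios of -0.44, -0.21, -0.54 and -0.31 and were not called. The median was -0.49 over the 6 and -0.14 over all genes tested. With PBS stage weights Camp was at -0.82, and Ngp at -0.51 was no longer called. With every barcode thinned to 1000 UMIs before gating, Camp was at 0.90 and Ngp at 0.57, and no immature PBS cell was left.

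In immature cells Camp and Ngp were again the 2 genes called lower in PD-L1, at log2 ratios of -1.0 [-1.05 to -0.95] and -0.75 [-0.82 to -0.68]. Ltf was at -0.54, Lcn2 at 0.14, Mmp8 at 0.27 [-0.11 to 0.65] and Mmp9 at 0.17 [-0.20 to 0.55]. In this small class 30.6% of all genes tested were called lower and 16.1% higher, so 2 of 6 lower is near the background, and the median was -0.20 over the 6 and -0.21 over all genes. The sum of the immature markers also moved with this result: PBS stood at 5414 CPM, PD-L1 at 2159 and AI-Exo at 5167. Of these sums 1 marker, Chil3, gave 4173, 1303 and 3078 CPM, the larger part of each, so they say little of the other markers. The part of the markers in the result was not tested. With 1 more marker required per gate, neither gene was called (Camp -0.19 and Ngp -0.09).

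**Figure D4:**
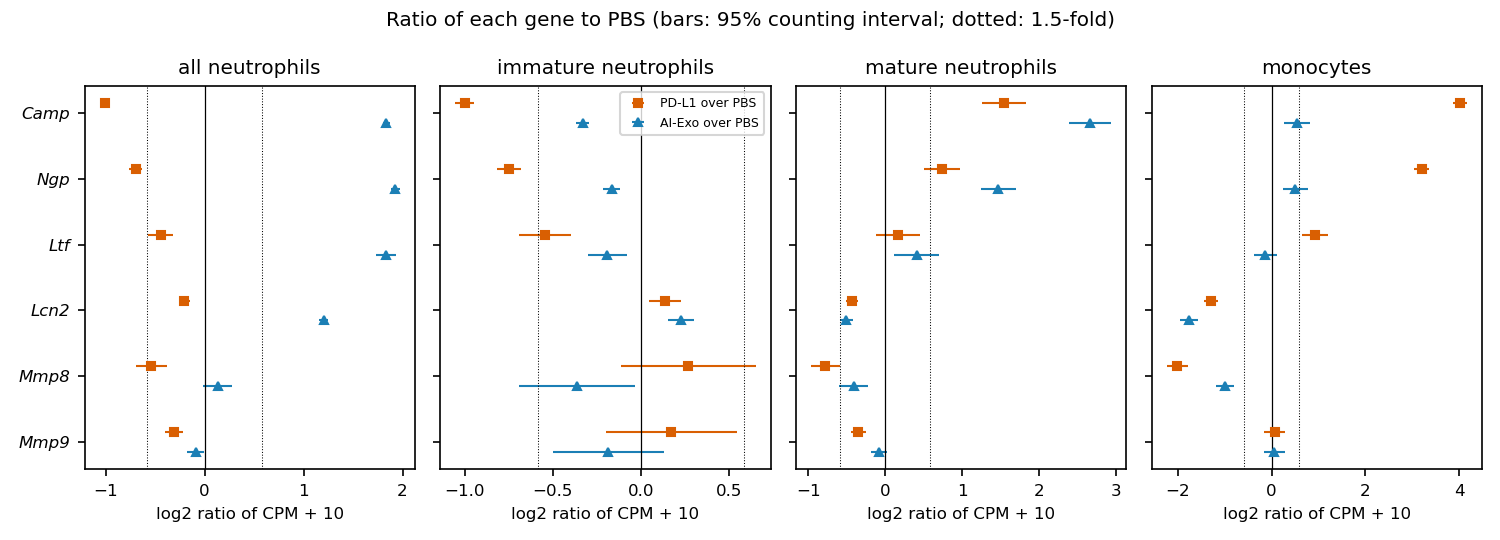
Log2 ratio of CPM plus 10 of each gene in PD-L1 and AI-Exo over PBS, in all neutrophils, immature cells, mature cells and monocytes, with 95% counting intervals and dotted lines at 1.5-fold. Camp, Ngp, Ltf and Lcn2 lie at 1.20 to 1.93 over all neutrophils of AI-Exo and within 0.33 of 0 in its immature cells.

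Mature neutrophils of both treated libraries held more Camp and Ngp than those of PBS. Camp was at 6.34 CPM (21 UMIs in 1129 cells) for PBS, 37.8 (197 UMIs) for PD-L1 and 93.8 (379 UMIs) for AI-Exo, so its log2 ratio was 1.55 [1.26 to 1.84] in PD-L1 and 2.67 [2.39 to 2.94] in AI-Exo. Ngp was at 38.3, 70.7 and 124 CPM, with log2 ratios of 0.74 and 1.47. Of the 6, these 2 were called higher in each treated library. Of all genes tested, 3.88% were called higher in PD-L1 and 3.93% in AI-Exo. Camp was under 10 CPM in PBS and passed the level filter only through the treated libraries. It could thus not be called lower, and its calls are not weighed against these shares. The transcripts sat in few cells, since 1 cell held 25.9% of the mature Camp UMIs in PD-L1 and 31.1% in AI-Exo. Clusters built without the 6 genes reversed the PD-L1 ratios, to -0.96 for Camp and -0.63 for Ngp, and left AI-Exo at 1.12 and 1.51.

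Of Lcn2, Mmp8 and Mmp9, the genes with more transcripts left in mature cells, only Mmp8 was called there. It fell from 118 CPM in PBS to 64.5 in PD-L1 (-0.78 [-0.97 to -0.59]), 1 of 6 genes called lower, where 6.75% of all genes tested were. Lcn2 (766, 565 and 537 CPM in PBS, PD-L1 and AI-Exo) was at -0.43 in PD-L1 and -0.50 in AI-Exo, just inside the size used. Mmp9 was at -0.35 and -0.08, and Mmp8 in AI-Exo at -0.41, with 0 of 6 called lower there and 2.76% of all genes. The thinned share of mature cells with an Mmp8 UMI was 8.91% [7.30 to 10.7], 5.82% [4.73 to 7.07] and 5.65% [4.38 to 7.16], so PBS was above both.

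Monocytes, which are not known for these granules, carried Lcn2 and Mmp8 but hardly any Mmp9. Lcn2 was at 244 CPM in the monocytes of PBS, 94.0 in those of PD-L1 and 65.2 in those of AI-Exo, and Mmp8 at 154, 30.7 and 72.5. Mmp9 was at 1.69, 2.21 and 2.20 CPM. After thinning, 14.5% [12.5 to 16.7] of PBS monocytes showed Lcn2, against 3.07% [1.77 to 4.94] in PD-L1 and 4.62% [2.61 to 7.50] in AI-Exo, while T cells gave 0.277%, 0.215% and 0.45%. Mmp8 was seen in 10.9%, 2.30% and 3.08% of monocytes and in 0.0787%, 0.112% and 0% of B cells. Median depths were 7887, 5148 and 7585 UMIs in monocytes and 4220.5, 4431 and 4555 in T cells before thinning. PBS monocytes thus stood above those of both other libraries for both genes.

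**Figure D5:**
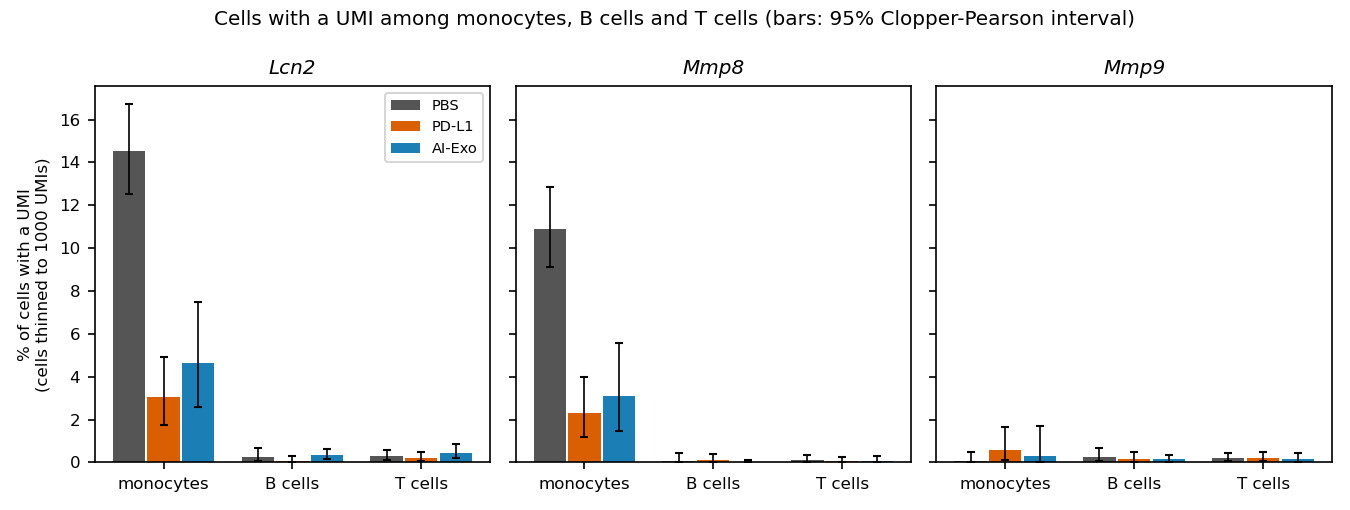
Percent of monocytes, B cells and T cells with a UMI of Lcn2, Mmp8 or Mmp9 after thinning to 1000 UMIs, by library, with exact 95% Clopper-Pearson intervals. Lcn2 and Mmp8 reach 14.5% and 10.9% of PBS monocytes, and Mmp9 stays below 1% in monocytes of every library.

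Lcn2 and Mmp8 were both called lower than in PBS, at log2 ratios of -1.29 [-1.45 to -1.13] and -2.01 [-2.24 to -1.78] in PD-L1 and of -1.76 [-1.95 to -1.57] and -0.99 [-1.18 to -0.80] in AI-Exo. In PD-L1, 1 barcode held 227 of the 297 Lcn2 UMIs, and without it the Lcn2 ratio was -2.97. In PD-L1, 6.58% of all genes tested in monocytes were called lower, and in AI-Exo 2.89%. In AI-Exo these were the 2 members that passed the level filter, and 0 were called higher, where 4.66% of all genes were. The UMIs in PBS were spread over many cells, with 50% of Lcn2 in 62 and 50% of Mmp8 in 97 of the 1123 monocytes. The 2 transcripts tended to share cells: Lcn2 was found in 37.7% [29.1 to 46.9] of the 122 thinned PBS monocytes with Mmp8 and in 11.7% [9.77 to 13.9] of the 1000 without. PD-L1 and AI-Exo had 12 and 10 monocytes with Mmp8, too few for this comparison.

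Chil3, a chitinase-like gene that young neutrophils and classical monocytes express, is no marker of the monocyte gate and was lower in the same libraries. It was at 3165 CPM in the monocytes of PBS, 330 in those of PD-L1 and 690 in those of AI-Exo (log2 ratios of -3.22 and -2.18). In PBS, Lcn2 was seen in 21.9% [18.8 to 25.2] of the 671 monocytes with Chil3 and in 3.55% [2.04 to 5.70] of the 451 without, and Mmp8 in 13.6% and 6.87%. The neutrophil markers summed to 1133, 2063 and 1314 CPM in the monocytes of PBS, PD-L1 and AI-Exo. The immature markers, with Chil3 giving most of the sum, summed to 3328, 446 and 974 CPM. Other neutrophil genes, named after their values were seen, did not all go 1 way. Cd177 stood at 56.5, 9.18 and 17.2 and Wfdc21 at 116, 25.6 and 61.9 CPM. Slpi, of the same list, stood at 986, 991 and 907 and Itgb2 at 90.2, 149.7 and 142 CPM. Counts over that list are given further below. The part of all these genes in the result was not tested.

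Camp and Ngp in monocytes were called higher in PD-L1, at 172 and 88.0 CPM against 1.16 and 0.634 in PBS (log2 ratios of 4.03 and 3.20). Both were under 10 CPM in PBS and passed the level filter only through PD-L1, so they could only be called higher. These 2 calls among the 4 members tested are therefore not weighed against the 8.73% of all genes called higher. A single barcode gave 538 of the 543 Camp UMIs and 275 of the 278 Ngp UMIs. It had 9603 UMIs, 5 monocyte markers, 5 neutrophil markers and 6 immature markers, and it is the one that held most of the Lcn2 UMIs. Without it 0 members were called higher, and the log2 ratio of the 6 genes summed moved from -0.01 to -2.56. In AI-Exo, Camp stood at 6.22 CPM in monocytes, no higher than the 7.16 CPM of its B cells.

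Mmp8 was also present in alveolar macrophages (409, 451 and 571 cells). It was at 23.2 [18.9 to 28.2], 27.7 [23.4 to 32.6] and 27.0 [23.3 to 31.0] CPM there in PBS, PD-L1 and AI-Exo, with overlapping intervals. The UMIs were spread, with the top cell holding 5%, 6.85% and 4.02% of them. After thinning, 1.96%, 2.49% and 3.18% of alveolar macrophages showed Mmp8, against 0.0787%, 0.112% and 0% of B cells. The other 5 genes lay between 0.464 and 6.64 CPM in these cells, the highest being Camp in AI-Exo. In T cells of PBS, Camp was at 53.0 CPM, and there 1 barcode of 25987 UMIs with 6 T cell, 4 neutrophil and 11 immature markers gave 770 of the UMIs.

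Other genes of the granule programme were followed in 5 lists. Of 19 other secondary and tertiary granule or granule membrane genes, all 19 passed the level filter in neutrophils of AI-Exo and PBS, with 7 called higher and 0 lower in AI-Exo (median log2 ratio 0.24). Over all genes tested there, 6.93% were called higher and 2.98% lower. Of the 7, Fcnb and Olfm4 were under 10 CPM in PBS and passed that filter only through AI-Exo. The ficolin gene Fcnb was highest, at 5.51 CPM in PBS and 68.2 in AI-Exo (2.33), and the lysozyme gene Lyz2 was at 1059.6 and 2547 CPM (1.26). The leukocyte protease inhibitor gene Slpi was lowest, at 2933 and 2212 CPM (-0.41). In PD-L1, 0 were called higher and 2 lower of 17 tested, the lowest being Chil3 (327 to 95.01 CPM, -1.68). Over all genes tested there, 3.6% were called higher and 4.9% lower.

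Of 10 primary granule genes, 5 could be tested in neutrophils of AI-Exo, of which Prtn3 (proteinase 3) and Elane were under 10 CPM in PBS and passed only through AI-Exo. Serpinb1a, listed with them as an elastase inhibitor, was at 34.4 CPM in PBS and 137 in AI-Exo (1.73). Cd63 and Ctsc, which are no gate markers, were not called. Cd63 was at 147 and 170 CPM (0.19) and Ctsc at 67.4 and 92.4 CPM (0.40). Within immature cells Ctsc went the other way, from 91.0 CPM in PBS to 33.4 in AI-Exo (-1.22). Prtn3 and Elane had 0 UMIs in immature cells of PBS and 226 and 125 in those of AI-Exo. Against a floor of 3 UMIs that was 11.2-fold and 6.20-fold, no minimum, since UMIs of 1 cell are not independent. Elane in AI-Exo was at 287 CPM in the 22 cells with 8 or more immature markers. It was at 0 in the 31 with 5 to 7, and PBS had 2 cells with 8 or more. Among the division genes, Stmn1 was at 23.3 CPM in neutrophils of PBS and 80.9 in those of AI-Exo (1.45) and Tuba1b at 22.3 and 58.9 (1.09). The other tested ones were under 10 CPM in PBS and passed the level filter only through AI-Exo, so no count of them is given. In immature cells of PD-L1, Mki67 was at 23.8 CPM against 74.9 in PBS (-1.33), and Birc5 had 0 UMIs against 28. Against the same floor Birc5 was 12.6-fold lower, again no minimum. In this class 30.6% of all genes were called lower. Several of these genes are themselves markers of the immature gate: 3 of the 19 (Chil3, Fcnb and Olfm4), 6 of the 10 primary granule genes and 2 of the 6 division genes.

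Of the 10 granulocyte transcription factors, 1 was called higher and 2 lower among 9 tested in neutrophils of AI-Exo. The shares over all genes tested were 6.93% higher and 2.98% lower. Cebpe, which encodes C/EBP epsilon and is a gate marker, was at 14.2 CPM in PBS and 50.2 in AI-Exo (1.32). Cebpb, a C/EBP gene active in mature neutrophils and in inflammation, was at 9139 CPM in PBS, 5303 in AI-Exo (-0.78) and 10790.3 in PD-L1 (0.24). In immature cells PBS had it at 3772 CPM, PD-L1 at 5772 (0.61) and AI-Exo at 2014 (-0.90), the highest ratio of the list in PD-L1 and the lowest in AI-Exo. Stat3 was the lowest of the list over all neutrophils of PD-L1, at 563 CPM in PBS and 359 in PD-L1 (-0.63). It was also called lower in AI-Exo, at 362 CPM (-0.62).

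Of the 9 inhibitors, carriers and receptors of the member proteins, 4 were tested over all neutrophils, and 0 were called in either direction in PD-L1 or AI-Exo. The shares of all genes called higher and lower were 3.6% and 4.9% in PD-L1 and 6.93% and 2.98% in AI-Exo. Timp2, an inhibitor of metalloproteinases, was at 67.2, 85.9 and 88.6 CPM in PBS, PD-L1 and AI-Exo. Fpr2, a formyl peptide receptor at which CRAMP acts, was at 94.2, 92.4 and 106 CPM. In monocytes, Itgb2, the shared chain of the integrins stored in granule membranes, was the highest of its list, with PBS at 90.2 CPM, PD-L1 at 149.7 (0.67) and AI-Exo at 142 (0.60). There 8 of 15 tested genes of that list were called lower in PD-L1 and 7 of 15 in AI-Exo, with 1 higher in each. Of all genes tested in monocytes, 6.58% were called lower and 8.73% higher in PD-L1, and 2.89% and 4.66% in AI-Exo. Cd177 was under 10 CPM in PD-L1 and passed the level filter there only through PBS.

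Over 30 pairs of class and library, the genes most like the mean of Camp, Ngp, Ltf, Lcn2 and Mmp8 by Pearson correlation of log2 CPM plus 10, out of 6201 genes ranked, were Abca13 (0.978), Ly6g (0.973), Ankrd22 (0.970), Dach1 (0.962) and B230208H11Rik (0.961). All 5 were highest in the immature cells of PD-L1. Those most like Mmp9 were Retnlg (0.994), Chil1 (0.989), Il1f9 (0.985), Hdc (0.984) and Mrgpra2b (0.984), of which Retnlg and Hdc are neutrophil gate markers. Among the members themselves, Camp and Ngp correlated at 0.990, Lcn2 and Mmp8 at 0.940 and Camp and Mmp9 at 0.784. These coefficients describe pairs that share libraries and differ in depth, and the stages of 1 library also share its neutrophils.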

How the data were processed

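The authors deposited 1 matrix per library of UMI counts per gene and barcode, whole numbers with no normalization. Libraries were made with the 10x Genomics 3′ v3.1 chemistry, per the labels' protocols. The matrices name Cell Ranger 7.1.0, per the file headers, while the submitters' processing notes list Cell Ranger 3.0.2. The sources used here do not give the genome build or the annotation, and near-identical transcripts could be counted for one another.

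UMIs were summed per gated class and library and given as CPM. A barcode passing more than 1 of 11 gates was left out. Intervals at 95% are exact Poisson for sums, exact Clopper-Pearson for shares and by the delta method for log2 ratios. UMIs of 1 cell are not independent of each other, so these cover counting error only, and 0 is read against a floor of 3 UMIs. With 1 library per group no test was run. Genes were called by size as described in the report. The call rule was checked on counts simulated for all neutrophils and for monocytes, with counting error only. Immature and mature cells were not simulated. Shares used barcodes thinned to 1000 UMIs. No doublet caller was applied in the main values; leaving out Scrublet scores of 0.15 or more was an alternative. Work used Python 3.11.15, NumPy 2.4.6, SciPy 1.17.1, pandas 2.3.3 and scanpy 1.11.5.

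The members, the marker and companion lists and the alternatives were chosen with earlier results of these data known. The numbers of markers per gate were set after the matrices had been seen. Named throughout are the 6 members. Of each companion list, the highest and lowest ratio among genes at 50 CPM or more and the 2 with most UMIs were eligible, and those given were picked from them after their values were seen. Genes at 0 in 1 library (Elane and Birc5 among them) and the 5 genes most like the members were named too. Alternatives changed the UMI minimum to 1000, the mitochondrial limit to 10%, the gates, the doublets, free RNA, the depth, the clusters, the pseudocount to 1 and the weight of cells, and left out single barcodes.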

Additional observations from a re-analysis of the deposited data

Results flagged for a closer look

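Between cell types of the same libraries, 3 ratios to PBS pointed in opposite directions past the size used. Camp had a log2 ratio of -1.01 over all neutrophils and of 4.03 in monocytes of PD-L1. Ngp was at -0.70 and 3.20 in the same pair. Both monocyte values rest on 1 barcode that also showed 5 neutrophil and 6 immature markers. Lcn2 in AI-Exo was at 1.20 over all neutrophils and at -1.76 in monocytes, where its UMIs were spread over many cells in PBS. Within the neutrophil stages it was at 0.23 in immature and -0.50 in mature cells, and with PBS stage weights at -0.11. With 1 library per group the difference between the cell types was not tested.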

How the results depend on the processing

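The 6 genes summed had main log2 ratios to PBS of -0.61 (PD-L1) and 1.60 (AI-Exo) over all neutrophils, -0.68 and -0.19 in immature cells, -0.33 and -0.11 in mature cells and -0.01 and -1.35 in monocytes. All 48 member ratios kept their sign with a minimum of 1000 UMIs, at most 10% mitochondrial UMIs, doublets left out, a pseudocount of 1 and Chil3 not counted as an immature marker. The cause of the changes below was not tested. The share of all genes called was computed for the main setting only. Counts of members below are thus set only against the main counts.

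With 1 more marker per gate, the sum was -0.29 and 1.64 over all neutrophils, -0.05 and -0.07 in immature cells, -0.41 in mature cells of PD-L1 and -2.61 and -1.57 in monocytes. Members called in PD-L1 were then 1 lower over all neutrophils, 0 lower in immature cells, 1 higher in mature cells and 0 higher in monocytes. The immature share was 0.911% in PD-L1 and 5.73% in AI-Exo.

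With barcodes of several gates given to 1 type, the sum was -0.33 and 1.52 over all neutrophils, -0.51 and -0.06 in immature cells and -0.12 in monocytes of PD-L1. In PD-L1, 1 member was lower over all neutrophils and 1 higher in mature cells. The immature share was 2.67% in PBS and 10.7% in AI-Exo.

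With thinning to 1000 UMIs before gating, the immature cells left numbered 0, 3 and 8 in the order PBS, PD-L1 and AI-Exo, so no immature ratio could be computed. The shares were 0%, 0.181% and 0.651%. The sum was -0.06 and 1.13 over all neutrophils, -0.27 and 0.17 in mature cells and -2.26 in monocytes of PD-L1. Over all neutrophils of PD-L1, Camp (0.90) and Ngp (0.57) reversed, with 2 members higher and 1 lower. In mature cells of PD-L1, Ngp reversed to -0.09 and 0 were higher, and in AI-Exo 1 was lower. In monocytes 1 was higher in PD-L1 and 2 in AI-Exo.

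With clusters built without the 6 genes, the sum was -0.47 and 1.46 over all neutrophils, -0.47 and -0.06 in immature cells, -0.46 and 0.36 in mature cells and -2.79 in monocytes of PD-L1. In PD-L1, 1 member was lower over all neutrophils, 1 lower in immature cells, 0 higher and 4 lower in mature cells, where Camp (-0.96) and Ngp (-0.63) reversed, and 0 higher in monocytes.

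With every cell weighted equally, the sum was -0.34 and 1.29 over all neutrophils, -0.58 and 0.03 in immature cells, -0.21 in mature cells of AI-Exo and -0.45 in monocytes of PD-L1, with 1 lower over all neutrophils and 1 higher in mature cells of PD-L1.

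Without the barcode richest in the 6 genes in each class, chosen after seeing the data, the sum was -0.51 and 1.75 over all neutrophils, -0.61 and -0.04 in immature cells, -0.18 in mature cells of AI-Exo and -2.56 in monocytes of PD-L1. In PD-L1, 1 was lower over all neutrophils, 1 lower in immature cells, 1 higher in mature cells and 0 higher in monocytes.

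Without barcodes over 50000 UMIs, also chosen after seeing the data, the sum in AI-Exo was 1.66 over all neutrophils and 0.02 in immature cells.

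The immature sum was -0.64 in PD-L1 with at most 10% mitochondrial UMIs, and -0.73 and -0.23 without doublets. With Chil3 not counted, also chosen after seeing the data, it was -0.51 and -0.26, with 1 lower in PD-L1, the mature sum was -0.20 and 0.19, and the shares were 0.903% in PD-L1 and 5.53% in AI-Exo. With free RNA subtracted, the AI-Exo monocyte sum was -1.50. Members called higher over all neutrophils of AI-Exo were 4 in every setting but thinning, which gave 3. No paired analysis was possible because each group is 1 library. The 21 and 32 immature cells of PBS and PD-L1 limit every ratio within that class.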
